A study of Mus musculus with 18 samples.

Results

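The genes described here encode the nuclear-encoded subunits of the mitochondrial respiratory chain and of ATP synthase. They were chosen by gene name alone: symbols that begin with Ndufa, Ndufb, Ndufc, Ndufs or Ndufv and a number, the 4 Sdh genes, and symbols that begin with Uqcr, with Cox4 to Cox8 or with Atp5. This took 84 of the 24116 genes in the deposited table, namely 37 of complex I, 4 of complex II, 8 of complex III, 18 of complex IV and 17 of complex V. RNA had been sequenced from mouse intestinal organoids, small epithelial cultures that stem and progenitor cells of the intestine build, in 18 libraries that make up 6 groups of 3, from day 0 to day 5 of growth. All groups were wild-type C57BL/6, from animals aged 8 weeks, in 3 organoid lines, and each library pooled the organoids of 30 wells. Organoids were maintained in IntestiCult medium and then grown in ENR, a medium with EGF, Noggin and R-spondin. Until day 3 this held Wnt3a-CM (a conditioned medium, 20%) and 10 µM Y-27632, which inhibits ROCK, and until day 1 also 3 µM CHIR99021, which inhibits GSK3B, so the medium changed within the series. Replicate 1 of every day had no DNase step. By the sample titles replicate 1 was mouse 1, replicate 3 was mouse 3, and replicate 2 was mouse 2 except at days 1 and 2, where it was mouse 1; this exception rests on the titles alone and may be a slip.

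The respiratory chain passes electrons from NADH (complex I) and succinate (complex II) through ubiquinone, complex III and cytochrome c to oxygen at complex IV. Complexes I, III and IV pump protons, and complex V, the ATP synthase, makes ATP from the resulting gradient. In the intestinal epithelium stem cells and absorptive cells are known for high mitochondrial activity, while Paneth cells are known as more glycolytic. Some complex IV subunits have tissue isoforms: Cox4i2, Cox6a2, Cox7a1 and Cox8b are known from lung, heart or skeletal muscle, and their partners Cox4i1, Cox6a1, Cox7a2 and Cox8a are found in most tissues. The name rule misses some true subunits (Cyc1, Ndufab1 and Usmg5 among them). It takes in genes that are no classical subunits: Ndufa4l2, Cox7a2l, Atp5s and Atp5sl. It also counts Ndufa4 under complex I, although the protein is now assigned to complex IV.

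Some of these genes have short sequences in common near their transcription starts. RefSeq promoter windows of 300 bases (250 before and 50 after a start, GRCm38.p6, the same assembly as mm10) were matched for 69 of the 84 genes, in 75 windows. Windows were searched on both strands for GCGCATGC, the core of the site of NRF1, a factor known to control nuclear-encoded mitochondrial genes. The letters were in 10 of 75 windows (13.3%), beside 2.7% of all 32851 windows and 5.4% of the 11228 windows of genes tested here. In 5 windows (6.7%, beside 1.0% and 2.1%) the letters ran on into their own reverse complement, so that the match overlaps itself on both strands. The shorter match alone was in Sdhb, Ndufa6, Ndufa8, Uqcr11 and Atp5l. Of these, Ndufa8 and Uqcr11 were not called in any test below and Atp5l did not pass the filter. The 5 longer matches are shown in full, with Sdhb and Ndufa6, picked because they changed with time. Each is given as 30 bases read 5′ to 3′ on the gene's strand with the matching letters in capitals.
Cox6a1, chr5:115349102-115349131, minus strand: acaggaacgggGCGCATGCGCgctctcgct
Ndufa11, chr17:56717691-56717720, plus strand: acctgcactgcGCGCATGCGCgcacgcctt
Uqcrc1, chr9:108936667-108936696, plus strand: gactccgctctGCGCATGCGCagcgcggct
Atp5k, chr5:108434431-108434460, minus strand: ctttcactgcgGCGCATGCGCctttctggc
Atp5g2, chr15:102671071-102671100, minus strand: tggctccggccGCGCATGCGCagagccttc
Sdhb, chr4:140961206-140961235, plus strand: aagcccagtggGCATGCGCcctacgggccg
Ndufa6, chr15:82354356-82354385, minus strand: tccgcggtagaGCATGCGCattgcagagcc

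The letters AAGATGGC, the core of the YY1 site, were in 12 of 75 windows (16.0%), beside 2.7% of all windows and 4.7% of those of tested genes. In 9 of them (12%, beside 0.9% and 2.2%) they lay after the start and on the gene's own strand; the letters contain an ATG. All 12 were in genes of complex I or complex V, which hold 34 and 20 of the 75 windows. Both windows of Atp5sl hold the same site, which is counted in each. Examples from complex I are shown, with the matching letters in capitals.
Ndufs4, chr13:114388045-114388074, minus strand: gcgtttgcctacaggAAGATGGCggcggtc
Ndufs6, chr13:73328433-73328462, minus strand: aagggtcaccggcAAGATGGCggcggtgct
Ndufs7, chr10:80249462-80249491, plus strand: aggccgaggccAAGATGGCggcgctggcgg
Ndufa3, chr7:3617384-3617413, plus strand: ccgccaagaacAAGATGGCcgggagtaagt
Ndufa9, chr6:126849097-126849126, minus strand: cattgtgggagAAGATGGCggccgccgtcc
Ndufc1, chr3:51408915-51408944, minus strand: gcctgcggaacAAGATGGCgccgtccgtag

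The letters CCGGAAGT, the core of the ETS family site bound by GABPA, were in 5 windows (6.7%), beside 3.9% of all windows and 8.7% of those of tested genes, so the shares lay close together. TCAAGGTCA, the core of the site of the estrogen-related receptors, was in 2 windows (2.7%, beside 0.4% and 0.3%), those of Sdhd and Atp5g3. A match is a description of the letters and not a bound site. Cox7a1, which had the largest change on the log2(RPKM + 1) scale used for the tests, had none of these 4 motifs. The same was true of most members with a window. The 250 bases before its start are shown with CpG dinucleotides in capitals. They hold 4 CpG, beside 14 for its partner Cox7a2 and a median of 14 over the 75 member windows; 4 or fewer CpG were found in 3 member windows (4.0%), in 13.0% of the windows of tested genes and in 44.4% of all windows.
Cox7a1, chr7:30183921-30184170, plus strand: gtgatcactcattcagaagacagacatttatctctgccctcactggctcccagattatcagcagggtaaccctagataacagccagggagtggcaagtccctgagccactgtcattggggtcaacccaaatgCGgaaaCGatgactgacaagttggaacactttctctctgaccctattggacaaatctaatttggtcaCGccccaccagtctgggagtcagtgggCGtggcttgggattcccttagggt

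Levels are given in RPKM, a read count scaled to gene length and library size, so each is relative to its library. The RPKM sum over all genes was not constant. In replicates 1 to 3 it was 242910, 249945 and 254851 at day 0 and 329669, 310143 and 302450 at day 5. The sum of the 84 members was 11711, 12816 and 13524 at day 0 and 18455, 14646 and 14167 at day 5. A rise in RPKM thus need not be a rise in the share of summed RPKM. In pooled organoids fewer cells of a type and less RNA per cell cannot be told apart. The library sizes recovered from the values were 43010000 to 53930000 reads. Summed markers of epithelium (8 genes such as Epcam and Vil1) reached 2050 to 7050 RPKM, while those of mesenchyme (10 genes) reached 0.7 to 6.52, of immune cells (10) 0.82 to 3.89, of endothelium (6) 0.0494 to 0.379 and of red blood cells (5) 0 to 0.0627. The epithelial sum itself moved with time, from 2050 to 3450 at day 0 to 4540 to 7050 at day 1 and 2440 to 3030 at day 5, and its part in the results was not tested. Over all tested genes, the libraries of days 0 and 5 were alike within a day (mean correlation of centred values 0.6 to 0.76), whereas at days 2 to 4 this mean ran from -0.33 to 0.25 and 8 of 9 libraries were nearest to a library of another day. Day 4 replicate 3 was the lowest of all.

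Most of the subunit genes were among the abundant messages of the organoids. The median member stood at 93.2 RPKM for complex I, 198 for complex II and 266 for complex III, in which all members passed the filter on low values given below. Over all 18 members of complex IV it was 66.9 RPKM and over all 17 of complex V 146; over the 13 and 15 that passed the filter it was 216 and 170, beside 8.48 RPKM for all genes tested. RPKM is per length, so levels can be set side by side between genes. The catalytic head of ATP synthase led, with Atp5b (the beta subunit) at a median of 1210 RPKM over the 18 libraries and Atp5a1 (the alpha subunit) at 752. Atp5g3, which encodes the c subunit of the membrane ring, stood at 717 RPKM and Cox4i1, the regulatory subunit of complex IV, at 697. In complex I the core subunits of the electron path lay lower: Ndufs1 at 51.0 and Ndufv1 at 114 RPKM. In complex III the core proteins Uqcrc1 and Uqcrc2 stood at 302 and 230 RPKM and the Rieske iron-sulfur protein Uqcrfs1 at 199. In complex II the flavoprotein Sdha stood at 207 RPKM, its iron-sulfur partner Sdhb at 189, and the membrane anchors Sdhc and Sdhd at 186 and 293.

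**Figure D1:**
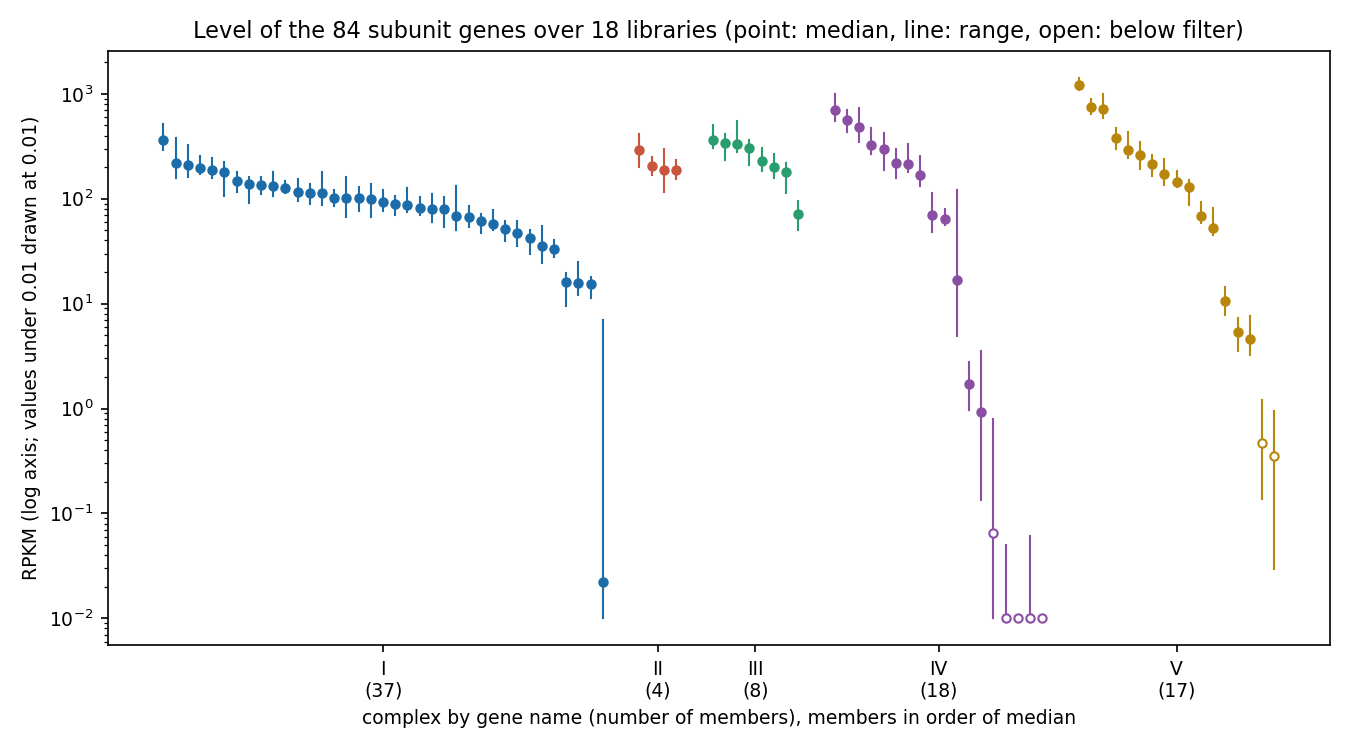
RPKM of each of the 84 subunit genes on a log axis, grouped by complex; the point is the median and the line the range over 18 libraries, and open points did not pass the filter on low values. Complexes II and III stay in a narrow band, while complexes I, IV and V have a tail of low genes, mostly paralogues.

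Paralogue groups were dominated by the forms found in most tissues. Of the partner isoforms, Cox4i1, Cox6a1 and Cox8a had medians of 697, 486 and 327 RPKM. Their tissue isoforms were almost silent: Cox6a2 reached at most 0.793 RPKM, Cox4i2 had a median of 0, and Cox8b was at 0 in all but 1 library. Cox7b2 and Cox8c, known from testis, were listed at 0 in all 18 libraries, beside 167 RPKM for Cox7b. Cox6b2, another isoform known from testis, had a median of 0.923 RPKM beside 560 for Cox6b1. Among the c subunit genes, Atp5g3 (717 RPKM) stood far above Atp5g1 (5.35) and Atp5g2 (0.355). Ndufa4l2, a paralogue of Ndufa4 known as induced in hypoxia, was listed at 1.00, 0.0215 and 7.02 RPKM in the 3 day 0 libraries and at 1.04 in day 5 replicate 3, and at 0.0601 or less in the other 14. Its mean at day 0 therefore rests on replicates 1 and 3.

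A few low values come with a limit of the annotation. Processed pseudogenes copied from these genes are common, and 15 of the 84 members had an annotated copy at 98% identity or more over at least 50 bases. Such copies covered 79.6% of the messenger RNA of Atp5h, 75.7% of Ndufs3, 62.8% of Uqcrb and 57.4% of Atp5l. Atp5l (median 0.47 RPKM), Cox7c (1.72) and Atp5g2 (0.355) encode standard subunits and have such copies, so their levels are uncertain. The sources used here do not say how reads that match several places were counted. Copies covered only 16.8% of Cox7c and 12.5% of Atp5g2, while Atp5h, Ndufs3 and Uqcrb had medians of 68.3, 33.05 and 71.3 RPKM. Whether the copies lower any of these levels was not tested. The spans of 27 members overlap another annotated gene, a protein-coding one for 15, and the use of strand is not given either. Among the genes named here, a protein-coding gene overlaps Atp5a1, Uqcrc2, Cox7a2, Ndufa1, Ndufa2, Ndufb11, Cox4i2, Cox6a2 and Ndufa4l2. A noncoding RNA gene or a pseudogene overlaps Atp5b, Atp5l, Atp5sl, Ndufs1, Ndufs7, Ndufa9, Ndufa10, Sdhc, Uqcrh and Cox7c, and Ndufs5 and Cox7a2l have a pseudogene copy of part of their message.

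Of the 84 members 77 passed the filter of at least 1 RPKM in at least 3 libraries and were tested; the 7 that did not were Atp5g2, Atp5l, Cox4i2, Cox6a2, Cox7b2, Cox8b and Cox8c. Over the 6 days the members moved within narrow bounds. The ratio of a member's highest to its lowest daily mean had a median of 1.34, and it was under 2 for 74 of 77 members (96.1%), beside a median of 1.69 and 66.5% for all genes tested. Among genes with a median level of 50 RPKM or more, the ratio had a median of 1.3 in 63 members and of 1.62 in all 1045 such genes. The exceptions over 2 were Cox7a1 (7.91), Cox6b2 (2.41) and Ndufa4l2 (369, with daily means near 0 at several days). The steadiest were Ndufs7 (1.06), a core subunit that carries an iron-sulfur cluster, Ndufa10 (1.12) and Atp5b (1.13). Of these, Ndufs7 and Ndufa10 were named after their values were seen.

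**Figure D2:**
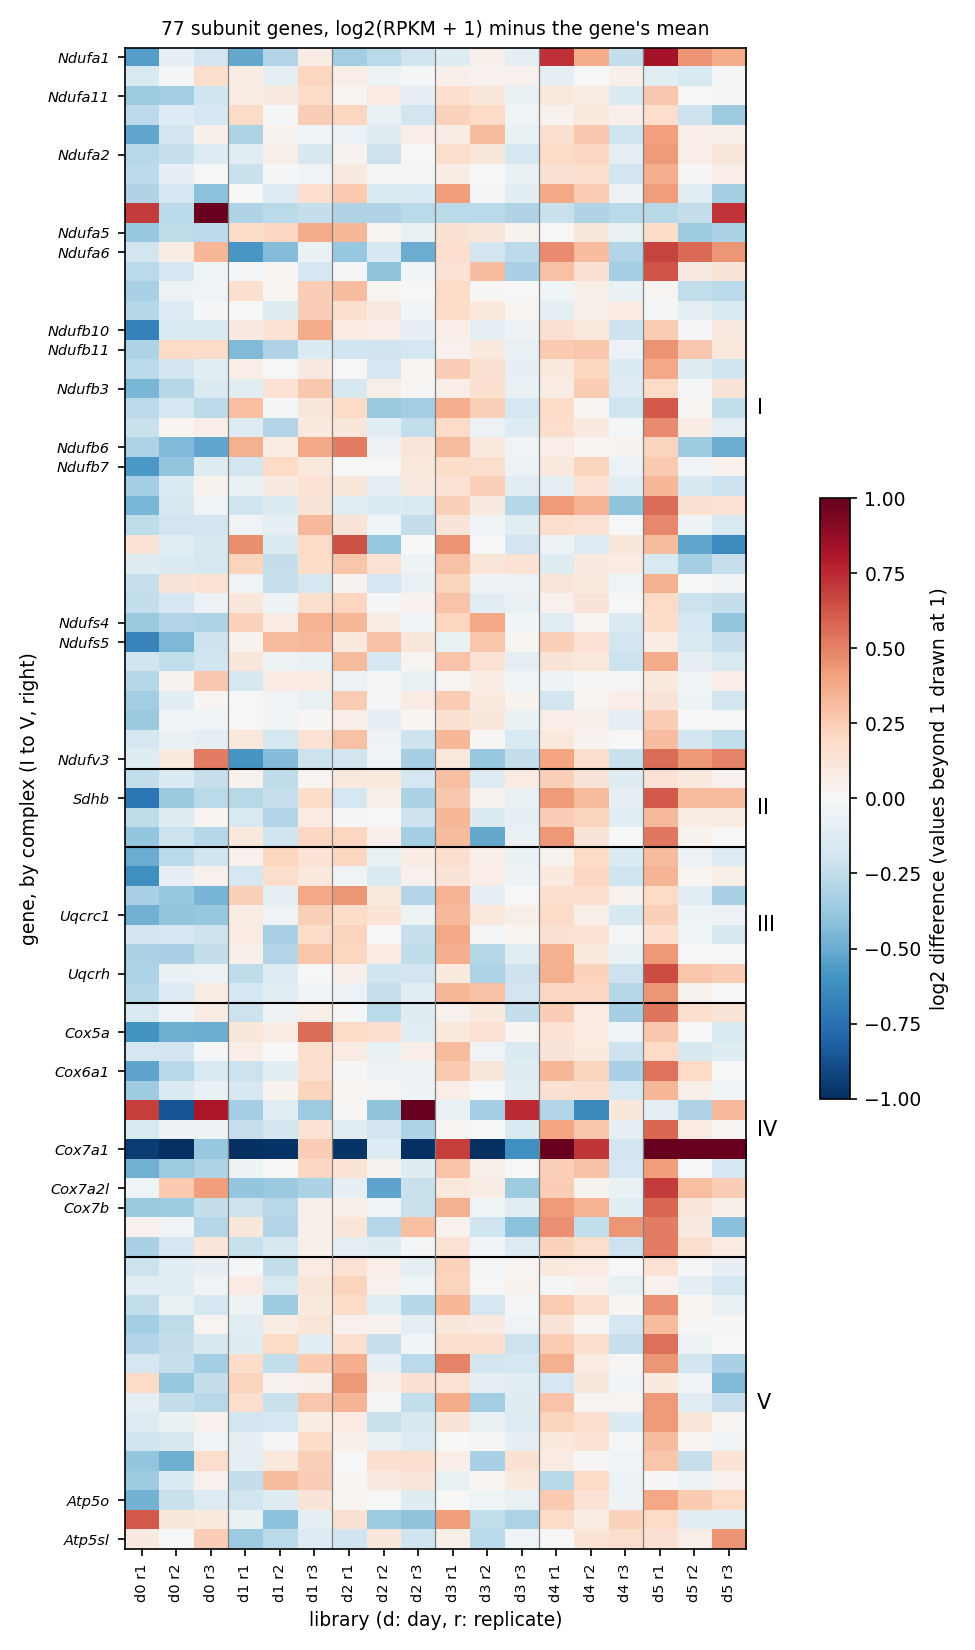
log2(RPKM + 1) of the 77 tested subunit genes, each minus its own mean over the 18 libraries (columns, by day and replicate), in blocks for complexes I to V; rows called in any comparison or in the F test are labelled. Day 0 replicate 1 is mostly blue and day 5 replicate 1 mostly red, and the row of Cox7a1 has the widest span.

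In the F test over all days (limma, Benjamini-Hochberg adjustment over all 11111 genes tested) 9 of 77 members were called, or 11.7%, beside 25.3% of all genes tested. By complex these were 4 of 37 in complex I, 1 of 4 in II, 1 of 8 in III, 3 of 13 in IV and 0 of 15 in V, where 2 genes had an unadjusted p under 0.05. The called members of complex I were Ndufv3, Ndufa6, Ndufa1 and Ndufs5, all accessory subunits. The others were Sdhb, Uqcrc1, Cox7a1, Cox5a and Cox7a2l. Adjusted p ran from 0.011 for Cox7a1 to 0.0481 for Uqcrc1. Cox7a1 kept its call in all 18 fits that each left out 1 library, whereas Cox5a lost it in 3, Cox7a2l in 4, Ndufv3 and Ndufa6 in 5 each, Sdhb in 6, Ndufs5 in 9, Ndufa1 in 12 and Uqcrc1 in 16, with adjusted p up to 0.146. The count moved with single libraries: it was 15 without day 4 replicate 3, 5 without day 0 replicate 1 or day 4 replicate 2, 4 without day 0 replicate 2 or day 1 replicate 1, and 3 without day 1 replicate 2 or day 5 replicate 2 or 3. In the 12 libraries treated with DNase it was 2, beside 12.2% of all genes.

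Of the 77 tested members 39 (50.6%) had their highest mean at day 5, beside 16.8% of all genes tested, 15 (19.5%) at day 1, beside 24.1%, and 2 (2.6%) at day 0, beside 33.6%. The lowest mean fell at day 0 for 55 members (71.4%), beside 22.9% of all genes tested. A score for each complex, the mean over its tested genes of log2(RPKM + 1) centred per gene, was set beside the days in each library. The complex IV score was -0.261, -0.299 and -0.043 at day 0 in replicates 1 to 3 and 0.546, 0.177 and 0.188 at day 5, with no overlap. This score includes Cox7a1, the member with the largest rise, and most of the gap between the 2 days rests on that gene. The gap is thus not a trait of complex IV as a whole. Over all members without Cox7a1 the score was -0.259, -0.174 and -0.039 at day 0 and 0.324, -0.01 and -0.036 at day 5. The complex I score was -0.284, -0.143 and 0.007 at day 0 and 0.295, -0.046 and -0.059 at day 5, so that its groups overlapped. For complexes II, III and V every day 5 library lay above every day 0 library, by least in complex V, where the day 0 scores reached -0.055 and the day 5 scores began at -0.04. Replicate 1, without DNase, held both the lowest score over all members at day 0 (-0.268) and the highest at day 5 (0.346).

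**Figure D3:**
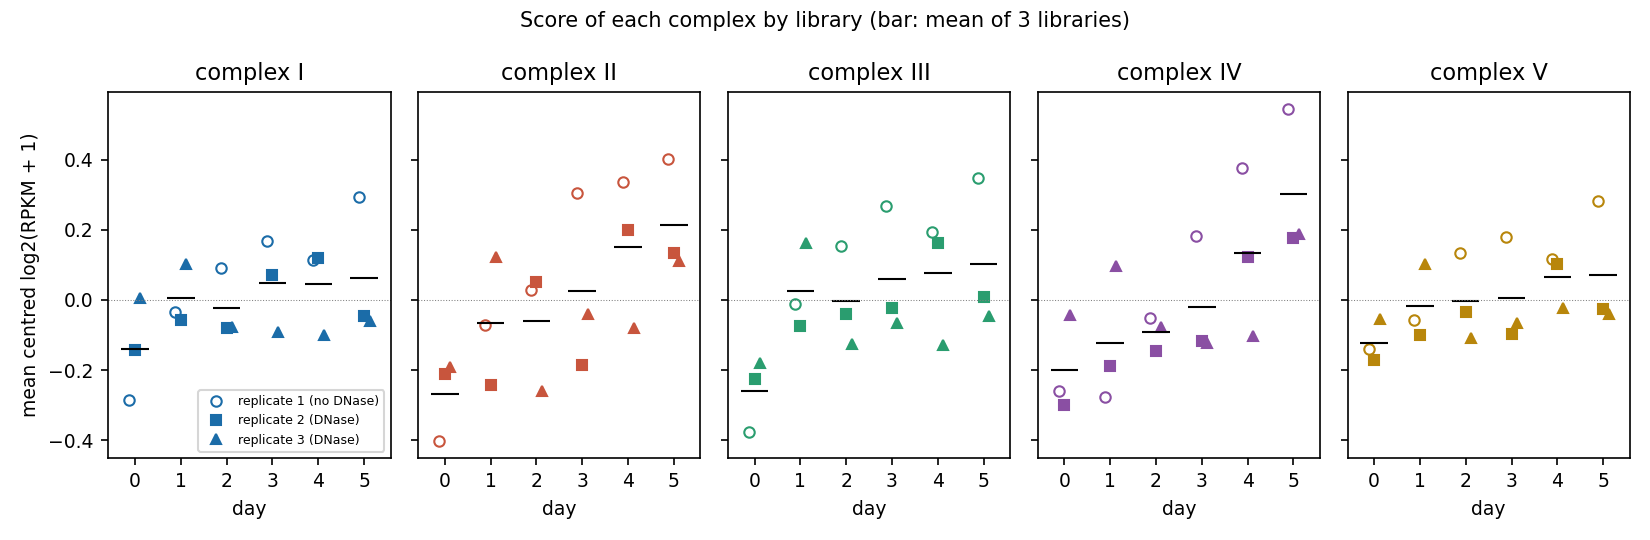
Score of each complex (mean centred log2(RPKM + 1) of its tested genes) in each library by day; bars are means of 3 libraries and open circles the libraries without DNase. Complexes II, III, IV and V have all day 5 points above all day 0 points, and replicate 1 lies highest at day 5 in all 5 panels. The complex IV score includes Cox7a1, on which most of its gap between days 0 and 5 rests.

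Between day 0 and day 1, the interval in medium with Wnt3a-CM, Y-27632 and CHIR99021, 8 members rose and 2 fell, or 10.4% and 2.6% of 77, beside 9.54% higher and 9.05% lower among all genes tested. After rescaling by median-of-ratios factors 5 members were higher and 0 lower. The median log2 change was 0.20 for members and 0.00 for all genes, and 61 of 77 estimates were positive. Medians by complex were 0.20 for I, 0.24 for II, 0.28 for III, 0.05 for IV and 0.22 for V. The largest rise was that of Cox5a, a nuclear-encoded subunit on the matrix side of complex IV. It measured 187, 203 and 201 RPKM at day 0 and 307, 299.9 and 419 at day 1, so that all day 1 values lay above all day 0 values, and the change was 0.78 on the log2 scale (SE 0.155, limma adjusted p = 0.00338). Ndufs5, an accessory subunit on the intermembrane side of complex I, went from 9.503, 11.1 and 13.3 RPKM to 16.0, 19.7 and 19.8, also without overlap (0.67, SE 0.156, limma adjusted p = 0.00854). Both calls held under all 27 alternatives tried for them.

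By complex the rises at day 1 were 6 of 37 in complex I, 0 of 4 in II, 1 of 8 in III, 1 of 13 in IV and 0 of 15 in V. These shares were not tested against each other. Ndufb6, a subunit of the proton-pumping membrane arm, rose from 71.6 ± 5.41 to 117 ± 13.2 RPKM (SD, n = 3; 0.69, limma adjusted p = 0.0175). Ndufa5 of the matrix arm rose from 80.8 ± 3.87 to 119.0 ± 8.76 RPKM (0.55), and Ndufs4, an accessory subunit whose loss is a known cause of Leigh syndrome, from 37.4 ± 1.07 to 55.2 ± 5.18 (0.55). For these genes too the 3 later values lay above the 3 earlier ones. Outside the 5 largest changes, Ndufb10 (0.52), Uqcrc1 (0.51) and Ndufa11 (0.42) were also called. All but Uqcrc1 were named after their values were seen. The calls of Ndufb10 and Ndufa11 were each lost in 4 of 18 fits that left out 1 library (limma adjusted p up to 0.146 and 0.089) and after rescaling (0.0793 and 0.0707), and that of Ndufb10 also with the mouse of the titles as a replicate block (0.0543). Uqcrc1 was not called after rescaling (limma adjusted p = 0.0701), in the libraries with DNase (0.0661), or with any day 0 library or day 1 replicate 3 left out (0.0557 to 0.0958). The call of Ndufb6 was lost without day 0 replicate 2 or 3 or day 1 replicate 1 or 3 (limma adjusted p = 0.0537 to 0.0711), and that of Ndufa5 without day 0 replicate 1 or 3 or day 1 replicate 3 (0.0503 to 0.0808). That of Ndufs4 was lost without any of the day 0 libraries or day 1 replicate 1 or 3 (0.0563 to 0.0968).

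The 2 members that fell at day 1 were Ndufv3, the smallest subunit of the flavoprotein part of complex I, and Cox7a2l, which is known for joining complexes III and IV into supercomplexes. Ndufv3 measured 34.0, 39.8 and 53.2 RPKM at day 0 and 24.4, 27.2 and 31.9 at day 1 (-0.57, limma adjusted p = 0.046). Cox7a2l went from 82.3 ± 13 to 54.6 ± 1.38 RPKM (SD, n = 3; -0.57, limma adjusted p = 0.0332). In both the groups did not overlap. With values rescaled by median-of-ratios factors both calls were lost (limma adjusted p = 0.141 for Ndufv3 and 0.0926 for Cox7a2l). Without any of the libraries of the 2 days other than day 0 replicate 1, both were lost as well (0.0561 to 0.206 and 0.0766 to 0.137), and for Ndufv3 also without day 2 replicate 1 or 3, day 3 replicate 3, day 4 replicate 2 or any day 5 replicate (0.0526 to 0.0601). With a replicate block the adjusted p of Ndufv3 was 0.0546 (replicate number) or 0.0504 (mouse of the titles). Leaving out day 0 replicate 1, 2 or 3 gave 6, 5 or 4 called members, and leaving out day 1 replicate 3 gave 2.

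No later step from a day to the next gave a called member. The shares of all genes called by limma were 0% for day 2 against day 1, 0% for day 3 against day 2, 0.036% for day 4 against day 3 and 0.189% for day 5 against day 4. At an unadjusted p under 0.05 the members numbered 0, 0, 1 and 0. The gene at day 4 was Cox7a1, with a log2 change of 1.34 and a limma adjusted p of 0.759.

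Between day 0 and day 5, the ends of the series, 13 members rose and 0 fell, or 16.9% of 77, beside 11.4% higher and 13% lower among all genes tested; the comparisons of days 0, 1 and 5 share libraries. The median log2 change was 0.27 for members and -0.17 for all genes, with 70 of 77 estimates positive. As given above, the summed RPKM of all genes rose as well. By those sums, the share held by all members, tested or not, was higher at day 5 than at day 0 only in replicate 1. In replicates 2 and 3, both treated with DNase, this share was lower at day 5. The rise of the members in RPKM was thus not a rise in their share in every replicate. No test of the change in share was run. In 34 members all 3 day 5 values lay above all 3 day 0 values, beside 19.2% of all genes tested, and in 0 members they all lay below, beside 34.9%. Medians by complex were 0.24 for I, 0.39 for II, 0.36 for III, 0.31 for IV and 0.23 for V. The rise differed between replicates: the member median from day 0 to day 5 was 0.66 in replicate 1, 0.17 in replicate 2 and 0.02 in replicate 3, whereas all genes gave -0.20, -0.14 and -0.16. In the libraries treated with DNase the member median was 0.095 and 1 member was called, Cox7a1. The share of all genes called in this smaller fit is not given here, so the lower count is no result about the members. At days 0 and 5 replicate 1 differs from the others in both DNase and mouse, which cannot be told apart.

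On the log2(RPKM + 1) scale the gene that rose most was Cox7a1, the isoform of a small complex IV subunit known from heart and skeletal muscle (chr7:30184171-30186030, mm10). It measured 10.2, 8.5 and 15.7 RPKM at day 0, and stayed between 4.91 and 24.7 at days 1 and 2. At day 3 it measured 33.9, 7.39 and 13.1, at day 4 98.2, 34.5 and 17.9, and at day 5 86.9, 64.0 and 121 RPKM. All day 5 values lay above all values of days 0 to 3, and at day 4 the libraries were spread between both. The log2 change from day 0 to day 5 was 2.87 (SE 0.626, limma adjusted p = 0.00689), and the call held under all alternatives tried (highest adjusted p 0.0306). The partner Cox7a2 stood at 169 ± 10.2 RPKM at day 0 and 236 ± 52.2 at day 5 (SD, n = 3) and was not called. As a share of the sum of both, Cox7a1 made up 4.75 to 8.11% at day 0, 8.42 to 27.4% at day 4 and 22.5 to 38.4% at day 5. The sum of 10 muscle marker genes stayed at 0.153 to 4.65 RPKM over all libraries and at 0.454 to 0.88 at day 5, and none of these genes passed the filter.

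**Figure D4:**
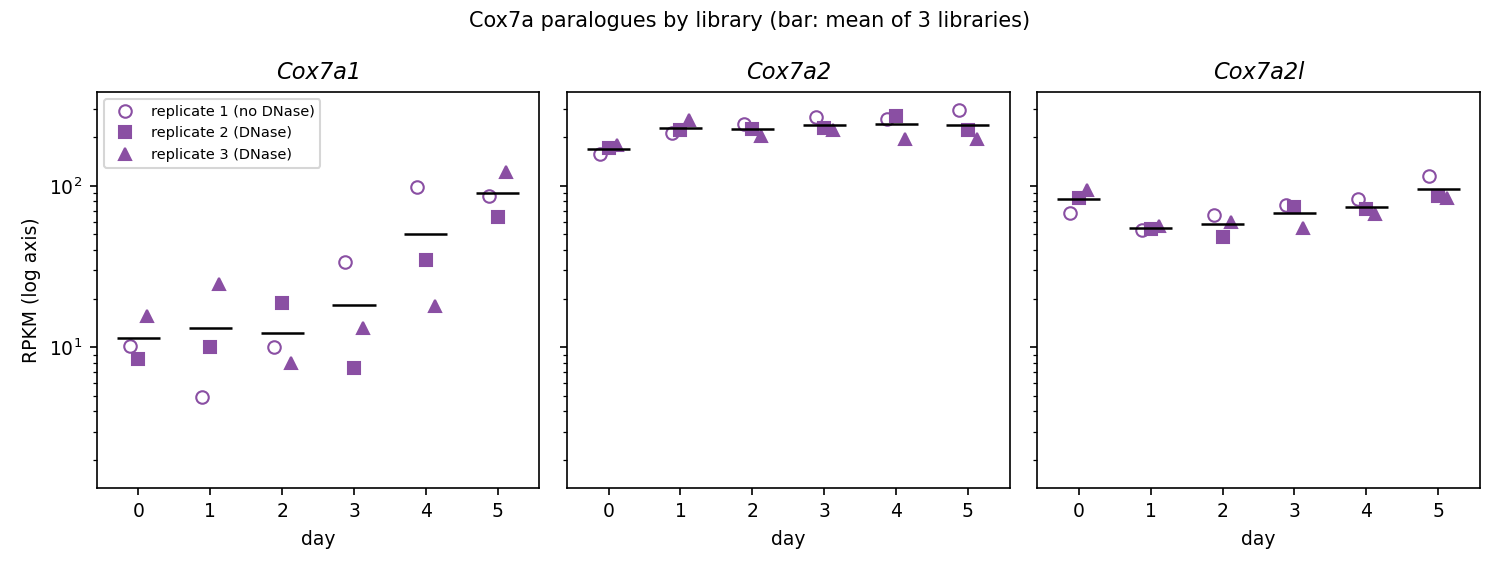
RPKM of Cox7a1, Cox7a2 and Cox7a2l in each library by day on a shared log axis; bars are means of 3 libraries and open circles the libraries without DNase. Cox7a1 lies between 4.91 and 33.9 until day 3 and between 64.0 and 121 at day 5, while Cox7a2 stays between 158 and 295.

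Sdhb, the iron-sulfur subunit of succinate dehydrogenase, had the next largest rise. It measured 116, 149 and 159 RPKM at day 0 and 295, 239.6 and 239.9 at day 5, well apart, a change of 0.87 (SE 0.186, limma adjusted p = 0.0062). Its call was lost only in the 12 libraries with DNase (limma adjusted p = 0.0741). The other subunits of complex II, Sdha, Sdhc and Sdhd, were not called. Ndufa1, a small membrane-arm subunit of complex I encoded on the X chromosome, measured 49.8, 69.1 and 64.0 RPKM at day 0 and 131, 100.2 and 95.3 at day 5 (0.83, limma adjusted p = 0.017). Its groups did not overlap, and its call was lost without day 0 replicate 1 (0.0591) or day 5 replicate 1 (0.0853).

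Complex IV had 4 of 13 members called from day 0 to day 5 (30.8%), beside 5 of 37, 1 of 4, 2 of 8 and 1 of 15 in complexes I, II, III and V; these shares were not tested against each other. Besides Cox7a1 these were Cox5a (0.57), Cox7b (0.57) and Cox6a1 (0.56). Cox5a held most of its day 1 level, at 295 ± 44.1 RPKM at day 5 (SD, n = 3). Cox7b, a small subunit needed for assembly of the complex, went from 138 ± 6.96 to 208 ± 42.8 RPKM. The call of Cox5a was lost without day 0 replicate 1 or 2 or day 5 replicate 1 (limma adjusted p = 0.0501 to 0.0906), that of Cox7b without any day 0 replicate or day 5 replicate 1 or 2 (0.0573 to 0.168), and that of Cox6a1 in 14 of 18 fits that each left out 1 library (up to 0.199). With a replicate block Cox6a1 had an adjusted p of 0.0505 (replicate number) or 0.0559 (mouse of the titles). The other calls included Atp5o (0.56), the stalk subunit of ATP synthase that confers sensitivity to oligomycin, and Uqcrh (0.54), the hinge protein of complex III. The rest were Uqcrc1 (0.46), Ndufb7 (0.45), Ndufa2 (0.42), Ndufa11 (0.40) and Ndufb3 (0.40). Of these other calls, all but Uqcrc1 were named after their values were seen. Of 18 fits that each left out 1 library, Atp5o lost its call in 1, Ndufa11 in 3, Uqcrc1 in 5, Uqcrh and Ndufb7 in 6 each, Ndufa2 in 13 and Ndufb3 in 15. In those fits the limma adjusted p was at most 0.191. With the mouse of the titles as the block, Ndufb3 (0.057) and Ndufb7 (0.0524) were not called. Leaving out day 0 replicate 1, 2 or 3 gave 3, 5 or 7 called members, and leaving out day 5 replicate 1 or 2 gave 2 or 6. Rescaling by median-of-ratios factors moved the median of all genes from -0.17 to 0.00 and that of members to 0.48, with 16 members higher.

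Between day 1 and day 5 there were 9 members higher and 0 lower, or 11.7% of 77, beside 11.8% higher and 16.1% lower among all genes tested. The median was 0.07 for members and -0.15 for all genes. Medians by complex were 0.00 for I, 0.22 for II, 0.05 for III, 0.30 for IV and 0.07 for V. The member median was -0.02 without day 5 replicate 1 and -0.07 in the libraries with DNase, where 3 members were higher and 2 lower; without day 1 replicate 1 the count was 4. Cox7a1 led again (2.90, limma adjusted p = 0.00613) and kept its call in all alternatives (highest adjusted p 0.0324).

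The next rises from day 1 to day 5 included both genes that had fallen at day 1. Ndufv3 went from 24.4, 27.2 and 31.9 RPKM to 55.1, 50.6 and 52.6 (0.91, SE 0.189, limma adjusted p = 0.00516). Cox7a2l went from 54.6 ± 1.38 to 94.95 ± 17 RPKM (SD, n = 3; 0.77, limma adjusted p = 0.00756). Neither gene's groups overlapped, and both calls held under all alternatives tried. Ndufa6, an accessory subunit known to dock the mitochondrial acyl carrier protein on complex I, measured 208, 250.2 and 299 RPKM at day 0, 158, 176 and 226 at day 1 and 380.1, 352 and 323 at day 5. Its day 5 values lay above those of all other days, except that day 4 replicate 1 (329) passed the lowest of them, and the change from day 1 was 0.92 (limma adjusted p = 0.00774). That call was lost only in the libraries with DNase (0.0592).

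Ndufa1 rose by the same measure (0.80, limma adjusted p = 0.018), a call lost without day 1 replicate 1 or 2 or day 5 replicate 1 (0.0554 to 0.0811). Ndufb11 (0.57), Sdhb (0.53), Uqcrh (0.52) and Atp5sl (0.47) completed the 9. All but Sdhb were named after their values were seen. Leaving out 1 library lost the call of Ndufb11 in 2 of 18 fits, of Atp5sl in 3 and of Uqcrh in 9 (limma adjusted p up to 0.156). The call of Sdhb was near the threshold (limma adjusted p = 0.0464) and was lost in 12 of 18 fits that each left out 1 library (0.0513 to 0.155) and with a replicate block (0.0531 by replicate number, 0.0573 by mouse). Ndufv3, Ndufa6 and Cox7a2l thus had their lowest means at day 1 and their highest at day 5, whereas Cox5a, Ndufs5, Ndufb6, Ndufa5 and Ndufs4 had their highest means at day 1.

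**Figure D5:**
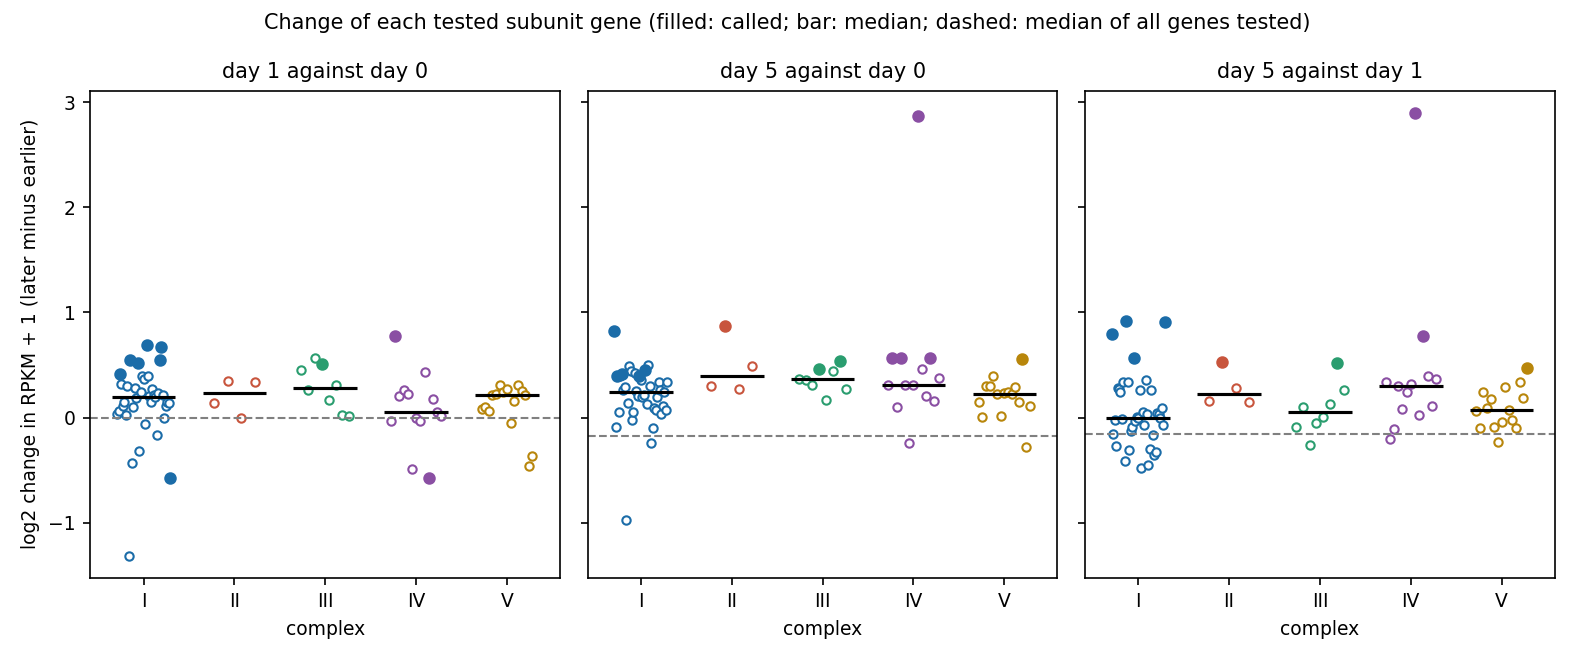
log2 change of each tested subunit gene in 3 comparisons, by complex; filled points were called by limma, black bars are the medians of each complex and the dashed line is the median of all genes tested. Members lie mostly above the dashed line in the comparison of day 5 with day 0, and Cox7a1 stands alone near 2.9 in both comparisons that end at day 5.

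Apart from Sdhb and Uqcrc1, the core subunits described at the start were not called in any comparison. Atp5b measured 1152 ± 31.5 RPKM at day 0 and 1156 ± 88.4 at day 5 (SD, n = 3), and Atp5a1 686 ± 32.6 and 761 ± 62.2. Ndufs1, the largest subunit of the matrix arm, stood at 45.6 ± 0.69 RPKM at day 0, 57.4 ± 3.89 at day 3 and 42.5 ± 2.63 at day 5. Ndufv1, which binds NADH, stood at 103 ± 12.9 and 122 ± 13 RPKM at days 0 and 5. Cox5b measured 59.0 ± 3.94 and 63.4 ± 9.13 RPKM at those days, Cox4i1 675 ± 52.9 and 843 ± 136, Uqcrc2 203 ± 2.61 and 230 ± 26 and Uqcrfs1 162 ± 5.36 and 222 ± 40 (SD, n = 3).

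Other genes of the pathway were read from lists of assembly factors, carriers, regulators and mitochondrial ribosomal proteins. Their counts stand beside the shares of all genes tested: 9.54% higher and 9.05% lower at day 1, 11.4% and 13% for day 5 against day 0, and 11.8% and 16.1% for day 5 against day 1. Proteins of the mitochondrial ribosome make the subunits encoded in mitochondrial DNA; of 76 tested, 32 rose and 0 fell at day 1 (median log2 change 0.43), and 40 fell and 0 rose from day 1 to day 5 (median -0.49), where 0 of 77 subunit genes fell. No test of the difference between these lists was run. Assembly factors of complex IV had 6 of 22 higher at day 1, among them Cox17, the copper chaperone of the complex (50.9 to 90.2 RPKM, 0.80, limma adjusted p = 0.00956), and 7 of 22 higher at day 5 against day 0. From day 1 to day 5, 1 of the 22 was higher (Higd2a, 0.71) and 3 were lower (Cmc2, Cox18 and Cox10, -0.89 to -0.42). Assembly factors of complex I had 2 of 15 higher at day 1 and 3 of 15 lower from day 1 to day 5, both counts near the shares of all genes; the lowest was Ndufaf4 (17.6 to 8.71 RPKM, -0.94). Of the factors of complex II 1 of 4 (Sdhaf1) and of complex III 1 of 6 (Uqcc2) rose at day 1. Atpif1, the inhibitor of ATP synthase, measured 98.2 RPKM at day 1 and 213 ± 25.7 at day 5 (SD, n = 3; 1.11, limma adjusted p = 0.00102).

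Among 15 genes of electron carriers, which make ubiquinone or carry electrons between the complexes, 4 rose and 2 fell at day 1, and from day 1 to day 5 there were 2 higher and 4 lower. Coq8a, needed for ubiquinone synthesis, fell from 24.9 to 2.80 RPKM at day 1 (-2.81, limma adjusted p = 0.000687) and stood at 28.2 RPKM at day 5 (2.97 against day 1). Cyc1, the cytochrome c1 of complex III that the name rule misses, rose from 187 to 259 RPKM at day 1 (0.47, limma adjusted p = 0.0263). Of 17 genes of the citric acid cycle and pyruvate dehydrogenase, 4 rose at day 1, led by Ogdh (0.68) and Idh3a (0.64). From day 1 to day 5 there were 2 higher and 4 lower, with Mdh2, the mitochondrial malate dehydrogenase, at 616 and 1205 RPKM (1.00, limma adjusted p = 0.0257). Of 7 tested carriers and channels, 3 rose at day 1 (Vdac2 0.95, Ucp2 0.71, Slc25a5 0.51). From day 1 to day 5, 3 of the 7 fell (Slc25a4 -1.49, Vdac2 -0.83, Vdac3 -0.46) and 0 rose.

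Of 14 tested regulators of mitochondrial biogenesis, 1 fell at day 1, the estrogen-related receptor Esrrg (9.49 to 1.86 RPKM, -1.92, limma adjusted p = 0.00069), and 1 fell from day 1 to day 5, Pprc1 (18.6 to 8.24 RPKM, -1.09). Nrf1, Gabpa, Esrra and Tfam, whose products are known to act on these genes or on mitochondrial DNA, were not called. Of 8 tested genes linked to the hypoxia factor HIF, 3 fell at day 1 (Bnip3, Pdk1 and Bnip3l). At day 5 4 were higher than at day 1 (Bnip3, Bnip3l, Pdk1 and Ldha). Bnip3, a receptor for the removal of mitochondria, measured 10.1 RPKM at day 0, 1.18 at day 1 and 7.53 at day 5. Transcripts of the mitochondrial genome encode the other subunits of complexes I, III, IV and V. Of 13 looked up by name, 0 were found among the deposited values, so they were not analysed here.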

How the data were processed

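RNA sequencing of 18 organoid libraries was used, as the RPKM values deposited by the authors (1 table, 24116 genes). Per the submitters' processing notes mm10, STAR 2.5.2b, bcl2fastq 2.17 and edgeR 3.20.5 were used, with no role or setting named. Gene annotation, strand use and treatment of reads with several matches: not given in the sources used here. Library sizes were recovered from the spacing of low values in genes with 1 exon, with a relative tolerance of 2e-05, as 43010000 to 53930000 reads, so 1 RPKM is at least 43.0 reads per kilobase; no 2 libraries held identical values (highest correlation 0.986).

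The deposited RPKM values were tested as log2(RPKM + 1) with limma 3.58.1 in R 4.3.3 (lmFit, then eBayes with a mean trend), 1 fit of all 18 libraries by day, which was tested on simulated data. A gene entered with 1 RPKM or more in 3 or more libraries (11111 did), tests were two-sided, Benjamini-Hochberg adjustment ran over all of them, and genes with an adjusted p below 0.05 were called. A change is the later minus the earlier day on the log2(RPKM + 1) scale, which understates that of low genes. Nothing in the labels beyond the mouse of the titles says that libraries of a day were separate cultures, and p-values measure the spread between these libraries. The members and lists were chosen with earlier results of these data known. Named members are core subunits, paralogue groups, the 5 largest called changes each way in a comparison and the 3 smallest adjusted p of each complex in the F test; of each list, up to 4 called genes. The values of 1 core subunit that this rule names are not reported here. Whether equal replicate numbers pair libraries was checked by correlating deviations from the daily means. Where the titles give all equal numbers the same mouse, replicates 1, 2 and 3 gave 0.143, -0.043 and 0.31 for days 0 and 5. They gave 0.466, 0.33 and 0.169 for days 4 and 5 and 0.806, 0.077 and 0.486 for days 3 and 4. In the other comparisons replicates 1 and 3 gave -0.077 and -0.212 for days 0 and 1, and 0.744 and -0.519 for days 1 and 2. They gave 0.144 and 0.353 for days 2 and 3 and 0.245 and -0.144 for days 1 and 5. Replicate 2, mouse 1 at both days 1 and 2 by the titles, gave -0.068 there. The signs were thus mixed. The mouse block rests on the titles, which may be in error for replicate 2 of days 1 and 2. Alternatives were another pseudocount (0.1), no filter or one at 5 RPKM, rescaling, replicate blocks, DNase-treated libraries only, the 2 compared days only, and leaving out libraries. Copies were found with blastn 2.17.0 in GENCODE M21; coordinates and promoters come from RefSeq.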

Additional observations from a re-analysis of the deposited data

How the results depend on the processing

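With 3 libraries a day the counts of called members moved with the libraries used. Except for the F test in the DNase-treated libraries, the share of all genes called under these alternatives is not given here. A shift in a count, here or above, is thus no result about the members. In the DNase-treated libraries alone (2 a day) they were 2 in the F test, 5 for day 1 against day 0, 1 for day 5 against day 0 and 5 for day 5 against day 1, and the member median for day 5 against day 0 was 0.095. Rescaling gave 5 members (5 higher, 0 lower) for day 1 against day 0 and a median of 0.476 for day 5 against day 0. Leaving out 3 libraries at once (replicate 1 of day 0, replicate 2 of day 3, replicate 3 of day 4) gave 7 members for day 5 against day 0. Leaving out 1 library at a time gave 3 to 15 members in the F test, 2 to 13 for day 1 against day 0, 2 to 17 for day 5 against day 0 and 4 to 10 for day 5 against day 1; medians ran from 0.13 to 0.228, from 0.144 to 0.359 and from -0.024 to 0.146. With the replicate block (replicate number) the 4 counts were 10, 11, 13 and 10, and with the mouse of the titles as the block 7, 10, 10 and 8. Calls lost with either block were those of Ndufv3 at day 1, Cox6a1 for day 5 against day 0 and Sdhb for day 5 against day 1, and with the mouse also those of Ndufa1 and Uqcrc1 in the F test (0.0552 and 0.0591), Ndufb10 at day 1 (0.0543), and Ndufb3 and Ndufb7 for day 5 against day 0 (0.057 and 0.0524). The pseudocount, the filter and the fit of only the 2 days moved no count by over 1.5 times. The cause of these shifts was not tested.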
